A study of Mus musculus with 12 samples.

Results

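The genes described here are 10 core pluripotency genes of the mouse, found by gene symbol among the 52636 genes of the deposited count tables: Pou5f1 (which encodes OCT4), Sox2, Nanog, Sall4, Dppa2, Dppa4, Dppa5a, Utf1, Tdgf1 and L1td1. Each of the 10 matched a single gene identifier, had counts in all 12 libraries and passed the filter on low counts in every comparison. The cells were E14, a mouse embryonic stem cell (ESC) line grown with LIF and inhibitors of MEK and GSK3, sampled undifferentiated or as embryoid bodies (EBs), the cell aggregates in which ESCs leave pluripotency and form several lineages. The 4 groups of 3 libraries each were compared, which the series calls biological replicates: EBs at day 6 of the circKat6b-e2 knockdown (KD EBs), wild-type EBs at the same day (WT EBs), undifferentiated knockdown ESCs (KD ESCs) and undifferentiated wild-type ESCs (WT ESCs). CircKat6b-e2 is a circular RNA named after exon 2 of the gene Kat6b, and the knockdown was made with an shRNA, as the sample titles say. The labels are silent on a control shRNA in WT cells and on the clonal or pooled origin of KD cells, and KD minus WT covers every difference between these populations. The RNA was selected with poly-T beads, so the circular RNA itself has no value in these tables.

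OCT4 and SOX2 bind DNA as a pair, largely at joined sites where a SOX site stands beside a POU site, and with NANOG they hold the gene programme of pluripotent cells, including their own genes. SALL4 is a zinc finger factor of the same network, DPPA2 and DPPA4 are partner proteins that keep developmental promoters open to activation, and UTF1 is a chromatin protein. DPPA5A and L1TD1 bind RNA, and TDGF1 (also called CRIPTO) is the cell surface co-receptor of the signalling protein NODAL. When ESCs differentiate these genes are shut down at different speeds, which makes their remaining levels a common readout of how far a culture has left pluripotency.

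The 3 factors that lead the network are shown first with the DNA before their start sites, which was searched for motifs of the network. The Pou5f1 stretch shown held no POU or SOX motif of those searched. Each line holds the 250 bases up to the RefSeq start of the gene (build GRCm38.p6, plus strand, 5′ to 3′). Capitals mark a GC box followed by a nuclear receptor core site in Pou5f1 (chr17:35505782-35506031), the POU core site in Sox2 (chr3:34649745-34649994) and a joined SOX-POU element, read on the minus strand, in Nanog (chr6:122707239-122707488). Copies of the GC box in Sox2 and of the nuclear receptor site in Sox2 and Nanog are left in lower case.

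Pou5f1: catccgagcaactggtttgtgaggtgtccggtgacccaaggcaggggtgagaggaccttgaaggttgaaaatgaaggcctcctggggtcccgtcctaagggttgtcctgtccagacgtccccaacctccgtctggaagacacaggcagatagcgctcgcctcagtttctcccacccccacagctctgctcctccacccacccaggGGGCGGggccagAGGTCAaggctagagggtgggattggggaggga

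Sox2: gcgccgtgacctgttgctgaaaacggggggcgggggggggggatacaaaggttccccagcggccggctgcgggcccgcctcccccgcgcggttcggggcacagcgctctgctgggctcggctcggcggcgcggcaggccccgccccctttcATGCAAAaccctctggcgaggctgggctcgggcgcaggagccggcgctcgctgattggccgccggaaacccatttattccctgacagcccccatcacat

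Nanog: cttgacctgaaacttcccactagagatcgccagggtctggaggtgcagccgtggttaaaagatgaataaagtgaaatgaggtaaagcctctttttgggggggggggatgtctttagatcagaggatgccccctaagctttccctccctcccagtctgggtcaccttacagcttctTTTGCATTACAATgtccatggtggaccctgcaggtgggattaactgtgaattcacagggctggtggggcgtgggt

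Of the 10 genes, 6 were matched to a RefSeq window of 250 bases before and 50 bases after the start, with 8 windows in all, and Sall4, Dppa2, Dppa4 and Dppa5a were not matched. Both strands were searched, and the shares given are of all 32851 windows. The POU octamer ATGCAAAT, present in 1.735% of windows, was in none of the 8. Its shorter core ATGCAAA, present in 4.627%, stood at bases −99 to −93 of Sox2 and −75 to −69 of Nanog, counted from the start site. The joined element as planned, the SOX core ATTGTT then the octamer with 0 to 1 bases between, was in 1 window (0.003%) and in none of the 8. The Nanog match was part of a looser joined element, ATTGTNATGCAAA (bases −75 to −63), written after the windows were read. It was in 8 windows of 6 genes (0.024%), both Nanog windows among them, and this low share is that of a form read off these windows. The SOX core ATTGTT, in 10.718% of windows, was found, among the 8 windows, in that of another Pou5f1 start (bases −159 to −154). The GC box GGGCGG was frequent (35.658%) and stood at bases −45 to −40 of the first Pou5f1 window, with AGGTCA (16.255%), the core site of nuclear receptors, at −33 to −28. Neither was particular to Pou5f1: GGGCGG was also in the windows of Sox2, Utf1 and Tdgf1, and AGGTCA in those of Sox2 (−244 to −239) and Nanog (−248 to −243). The POU core, looser joined, GC box and AGGTCA motifs were chosen after the windows were read, and a match is a description of letters, not a binding site. GC content was 62.0% in the Pou5f1 window, 72.0% in Sox2 and 52.0% in the first Nanog window, against a median of 52.4% over all windows.

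Total counts ran from 25.4 to 37.8 M per library, and the 10 genes took 0.0514% to 0.0760% of counts in EB libraries and 0.777% to 0.868% in ESC libraries. WT ESC replicate 2 stood apart: the chi-square per gene against the other WT ESC libraries was 60.88 and 61.66, and between 4.96 and 9.57 for every other pair of replicates. Tests on WT ESCs are therefore also given without it where their calls change. Levels of WT EBs as a share of the WT ESC level keep it in the WT ESC mean. Kat6b, the host gene of the circular RNA, was higher in KD EBs than in WT EBs (log2 fold change 0.98 with SE 0.06, edgeR adjusted p = 2.57e-15) and did not pass in ESCs (0.41 with SE 0.10, edgeR adjusted p = 0.0893), which measures linear transcripts and checks nothing about the circle. Of the annotated neighbours, Gm19553 shares 317 exon bases with Pou5f1 (14.1%) and Gm14261 shares 526 with Sall4 (9.5%) on the opposite strand; they held 0 to 8 and 0 to 45 counts per library. The counting was not stranded as far as the headers show, so reads of such partners cannot be told apart.

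Levels are given as RPKM, counts scaled for depth and for the length of the merged exons, which allows a rough comparison between genes. The merged exons can be longer than the transcript in use, so the order of genes close in level is uncertain. In ESCs, Dppa5a was far above the other 9: it had 7840.3, 8634 and 7777 RPKM in KD ESCs and 9381, 12246 and 8053 RPKM in WT ESCs. That mean level ranked 3 of 18975 genes in both ESC groups, and Dppa5a alone made up 82.1% of the summed RPKM of the 10 genes in KD ESCs and 85.1% in WT ESCs. Pou5f1 came next, with 561, 537 and 501 RPKM in KD ESCs and 491, 408 and 505 RPKM in WT ESCs. Tdgf1 and Utf1 followed with overlapping ranges in both groups: Tdgf1 had 279, 272 and 282 RPKM in KD ESCs and 293, 289.8 and 270.2 RPKM in WT ESCs, and Utf1 had 270.4, 285 and 262 RPKM in KD ESCs and 297, 352 and 292 RPKM in WT ESCs. Within each group every Nanog library came below these, at 242, 239 and 236 RPKM in KD ESCs and 263, 246 and 238 RPKM in WT ESCs. Sox2 stood at 139.8 ± 2.89 RPKM in KD ESCs and 118 ± 26.9 RPKM in WT ESCs (SD, n = 3 each). The lowest of the 10 in ESCs was Dppa2, at 30.6 ± 2.95 RPKM in KD ESCs and 29.3 ± 2.38 RPKM in WT ESCs (SD, n = 3 each).

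In EBs Dppa5a was still first and Dppa2 last, but the order between them differed from that in ESCs. Sox2, Sall4 and Utf1 came after Dppa5a in KD EBs, with ranges that overlapped between neighbours, and Pou5f1 followed. In WT EBs, Sall4 was second, and Nanog, Pou5f1 and Sox2 followed: the Pou5f1 libraries overlapped those of both others, while every Nanog library lay above every Sox2 library. Pou5f1, among the most abundant mRNAs of ESCs (rank 159 in KD ESCs and 193 in WT ESCs), ranked 2103 in KD EBs and 2691 in WT EBs. The 4 lowest genes stood in the same order in KD and WT EBs, L1td1, then Tdgf1, Dppa4 and Dppa2, with no overlap between neighbours.

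**Figure D1:**
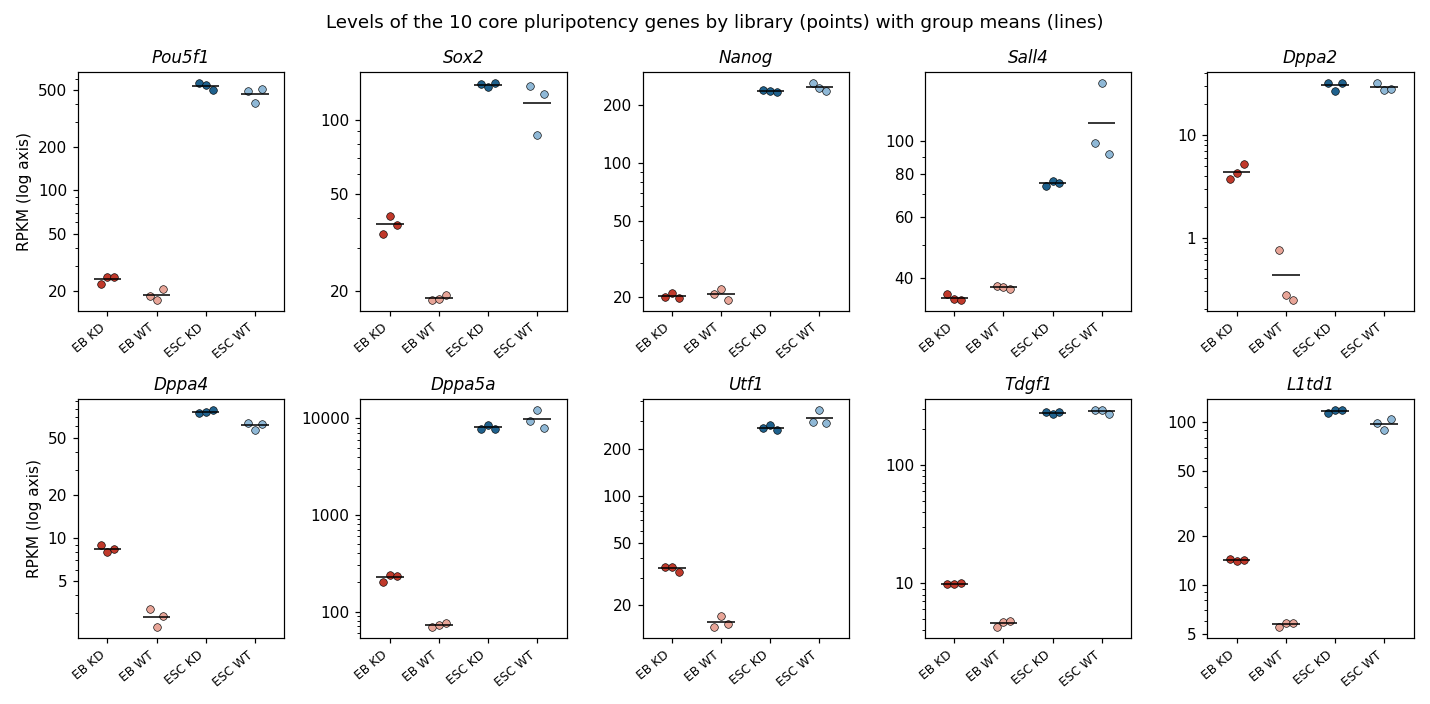
RPKM of each of the 10 genes (log axis, own scale per panel) in KD EBs, WT EBs, KD ESCs and WT ESCs; points are libraries and lines are means of 3. All EB points lie below all ESC points in each panel, the KD EB points lie above the WT EB points in 8 panels (not in Nanog or Sall4), and 1 WT ESC point stands off in Sox2 and Sall4.

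All 10 genes were lower in EBs than in ESCs, in KD and in WT cells. Among KD cells 10 of 10 were lower in EBs than in ESCs, where 79.8% of the 18975 genes tested were called, 37.3% lower and 42.5% higher. The median log2 fold change of the 10 was −3.11, against 0.15 over all genes. Among WT cells 10 of 10 were lower as well, where again 79.8% of genes were called, 37.3% lower and 42.5% higher, and the median was −4.38, against 0.17 over all genes. In these bulk samples, fewer cells that express a gene and less RNA per cell cannot be told apart.

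The depth of that fall differed widely between the genes. Dppa5a had the largest fall in both: KD EBs kept 2.79% of the KD ESC level (log2 fold change −5.16 with SE 0.14, edgeR adjusted p = 1.94e-13), and WT EBs 0.733% of the WT ESC level (−7.09 with SE 0.15, edgeR adjusted p = 1.99e-14). Tdgf1 had the second smallest p of all tested genes for EBs against ESCs in KD cells and the smallest in WT cells. Its EB level was 3.55% of the ESC level in KD cells (−4.81 with SE 0.06, edgeR adjusted p = 3.75e-17) and 1.61% in WT cells (−5.96 with SE 0.07, edgeR adjusted p = 7.75e-18). Pou5f1 kept 4.54% in KD EBs (−4.46 with SE 0.10, edgeR adjusted p = 2.13e-15) and 4.02% in WT EBs (−4.63 with SE 0.10, edgeR adjusted p = 1.57e-15), and Nanog kept 8.48% in KD EBs and 8.35% in WT EBs. For Pou5f1 and Nanog the KD and WT shares lay close together.

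At the other end, Sall4 kept the most: 46.5% in KD EBs (−1.11 with SE 0.13, edgeR adjusted p = 3.82e-06) and 33.4% in WT EBs (−1.58 with SE 0.13, edgeR adjusted p = 9.80e-08). Sox2 was next, with 26.8% in KD EBs (−1.90 with SE 0.13, edgeR adjusted p = 9.33e-09) and 16.0% in WT EBs (−2.65 with SE 0.13, edgeR adjusted p = 3.46e-10). The WT shares depend on WT ESC replicate 2. Without it the WT ESC mean was 95.4 RPKM for Sall4, against 113 with it, and 8717 RPKM for Dppa5a, against 9893. For Sox2 the mean was 133 RPKM, against 118. Leaving that library out would raise the WT shares of Sall4 and Dppa5a, nearer to their KD shares, and lower that of Sox2. Sall4 and Sox2 are also used by cells outside the pluripotent state, Sox2 in neural precursors among others. The remaining genes kept 11.1% to 14.4% in KD EBs and 1.46% to 5.87% in WT EBs. Of these, Dppa2 stood out with 14.4% in KD EBs and 1.46% in WT EBs, the WT value ranging from 0.847% to 2.60% over the 3 WT EB libraries (log2 fold change −6.09, and −6.78 without WT EB replicate 1).

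**Figure D2:**
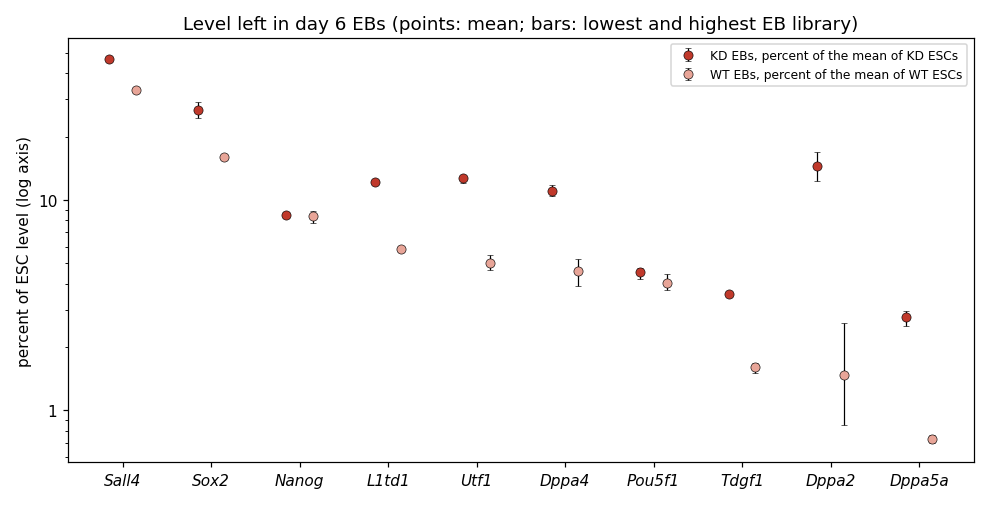
Level in day 6 EBs as a percentage of the mean ESC level of the same background (log axis), genes ordered by the WT value; points are means of 3 EB libraries and bars run from the lowest to the highest. The WT ESC mean includes WT ESC replicate 2. Nanog and Pou5f1 show close KD and WT points, and Dppa2 and Dppa5a the widest gaps (14.4% in KD and 1.46% in WT EBs, and 2.79% in KD and 0.733% in WT EBs).

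Within EBs, knockdown and wild type differed for 9 of the 10 genes: 8 were higher in KD EBs, 1 was lower and 1 did not pass. This has to be read against a background in which 55.7% of the 17355 tested genes were called, 28% higher and 27.7% lower. Gene positions are those of the deposited tables (GRCm38). The median log2 fold change of the 10 genes was 1.07, against 0.0024 over all genes tested. Since RPKM uses a scaling over all 12 libraries and the EB test one over the 6 EB libraries, ratios of RPKM lie about 0.06 above the log2 fold changes of the test.

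Among the 3 leading factors, Sox2 (chr3:34650405-34652461, plus strand, inside the span of the noncoding gene Sox2ot with no shared exon base) moved most. It had 34.4, 40.7 and 37.3 RPKM in KD EBs and 18.5, 18.7 and 19.3 RPKM in WT EBs. Every KD EB library was far above every WT EB library. The log2 fold change was 0.93 (SE of 0.06, edgeR adjusted p = 3.64e-15), a fold of 1.91. Pou5f1 (chr17:35506018-35510772, plus strand) had 22.5, 25.0 and 25.2 RPKM in KD EBs and 18.3, 17.4 and 20.8 RPKM in WT EBs. The groups did not overlap, but the step between the lowest KD and the highest WT library was small. Its log2 fold change was 0.30 (SE of 0.06, edgeR adjusted p = 1.55e-04). Nanog (chr6:122707489-122714633, plus strand) had 20.03, 21.0 and 19.7 RPKM in KD EBs and 20.9, 22.03 and 19.4 RPKM in WT EBs. These libraries were interleaved, and the log2 fold change of −0.10 (SE 0.06) missed the threshold (edgeR adjusted p = 0.182).

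Sall4 (chr2:168748332-168767943, minus strand) was the only gene of the 10 that was lower in KD EBs. It had 36.0, 34.6 and 34.6 RPKM in KD EBs and 37.96, 37.7 and 37.3 RPKM in WT EBs. The groups did not overlap, and the difference was small beside those of the other called genes. Its log2 fold change was −0.16 (SE of 0.03, edgeR adjusted p = 1.46e-04), and the call was lost when all 12 libraries entered the fit (−0.10, edgeR adjusted p = 0.594).

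Dppa2 and Dppa4 are neighbours on chromosome 16 (chr16:48310477-48319723 and chr16:48283735-48294292, both on the plus strand), and their proteins work together. Dppa2 had 3.77, 4.28 and 5.19 RPKM in KD EBs and 0.762, 0.277 and 0.248 RPKM in WT EBs. All KD libraries were well above all WT libraries, and WT EB replicate 1 was higher than the other WT libraries. The WT values rest on 57, 20 and 20 counts, the KD values on 273, 291 and 379. Its log2 fold change was the largest of the 10 at 3.30 (SE of 0.34, edgeR adjusted p = 3.71e-06), and it was 4.01, again called, without WT EB replicate 1. Dppa4 had 8.998, 7.95 and 8.33 RPKM in KD EBs and 3.21, 2.39 and 2.83 RPKM in WT EBs. The groups were again well separated, at a log2 fold change of 1.52 (SE of 0.14, edgeR adjusted p = 4.96e-11).

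The genes of the RNA-binding proteins, Dppa5a and L1td1, and Utf1 were higher in KD EBs as well. Dppa5a (chr9:78367052-78368177, minus strand) had 203, 239 and 233 RPKM in KD EBs and 69.1, 73.3 and 75.2 RPKM in WT EBs. It showed the smallest p of the 10 genes, with KD libraries far above WT libraries (log2 fold change 1.58 with SE 0.05, edgeR adjusted p = 3.15e-19). L1td1 (chr4:98726734-98738480, plus strand), whose protein descends from the first open reading frame of a LINE-1 element, had 14.3, 14.03 and 14.2 RPKM in KD EBs and 5.49, 5.84 and 5.81 RPKM in WT EBs. Its replicates were the most alike of the 10 in KD EBs, with a coefficient of variation of 0.942%, and the groups lay far apart (log2 fold change 1.25 with SE 0.07, edgeR adjusted p = 9.36e-16). Utf1 (chr7:139943789-139945112, plus strand) had 35.3, 35.4 and 32.8 RPKM in KD EBs and 14.6, 17.1 and 15.3 RPKM in WT EBs. No library of either group came near the other group (log2 fold change 1.08 with SE 0.08, edgeR adjusted p = 1.94e-13).

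Tdgf1 (chr9:110939603-110946158, minus strand), the co-receptor, had 9.76, 9.83 and 10.0 RPKM in KD EBs and 4.25, 4.65 and 4.79 RPKM in WT EBs. Every KD library was far above every WT library, at a fold of 2.08 (log2 fold change 1.05 with SE 0.09, edgeR adjusted p = 6.78e-12). Its pseudogene Tdgf1-ps1 drew counts equal to 7.51% to 10.4% of those of Tdgf1 in EBs, so the exact split between the copies is uncertain. Of 13 tested genes of the NODAL pathway (14 listed), 9 were higher and 3 lower in KD EBs, with a median of 0.27. Cfc1, which encodes CRYPTIC, the relative of TDGF1 with the same co-receptor role, was lower. It had 11.005, 10.0 and 9.31 CPM (counts scaled for depth only) in KD EBs and 30.5, 32.7 and 34.7 CPM in WT EBs (log2 fold change −1.75 with SE 0.09, edgeR adjusted p = 7.42e-17). The co-receptor genes thus differed in opposite directions in the same libraries.

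In undifferentiated ESCs, 0 of the 10 genes passed edgeR's test between knockdown and wild type, in a comparison where only 0.603% of 16081 genes did. At an unadjusted p under 0.05 there were 4: Sall4, Dppa4, L1td1 and Utf1. DESeq2 called 3 of the 10, namely Dppa4 and L1td1 higher and Sall4 lower, where it called 8.79% of 11714 genes. The median log2 fold change was 0.02, against 0.01 over all genes.

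Sall4 had the largest difference in ESCs, and its size depended on WT ESC replicate 2. It had 74.1, 76.6 and 75.6 RPKM in KD ESCs and 98.9, 148 and 92.0 RPKM in WT ESCs. All KD libraries were lower than all WT libraries, and WT ESC replicate 2 stood far above the rest. The log2 fold change was −0.57 (SE of 0.16, edgeR adjusted p = 0.105). Without WT ESC replicate 2 it was smaller but called (−0.33, edgeR adjusted p = 3.45e-07), and without WT ESC replicate 3 it was called too (−0.70, edgeR adjusted p = 0.0454). Of all tested genes, 9.35% were called without replicate 2 and 1.78% without replicate 3.

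Dppa4 had 74.6, 75.6 and 78.2 RPKM in KD ESCs and 63.8, 56.6 and 62.8 RPKM in WT ESCs. L1td1 had 113, 118 and 119 RPKM in KD ESCs and 98.4, 89.4 and 104 RPKM in WT ESCs. For both genes every KD library lay above every WT library. Dppa4 missed the threshold at a log2 fold change of 0.33 (SE of 0.08, edgeR adjusted p = 0.0763) and L1td1 at 0.27 (SE of 0.08, edgeR adjusted p = 0.103). Without WT ESC replicate 2 both were called, Dppa4 at 0.27 (edgeR adjusted p = 0.00184) and L1td1 at 0.21 (edgeR adjusted p = 9.85e-04).

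Sox2 had 141, 137 and 142 RPKM in KD ESCs and 138, 87.1 and 128 RPKM in WT ESCs. Apart from the low WT ESC replicate 2, the libraries of both groups lay close together, and the log2 fold change of 0.26 (SE 0.14) missed the threshold (edgeR adjusted p = 0.333) and was 0.08 without that library. It was also below the other 5 ESC libraries for Pou5f1, Dppa4 and L1td1, above them for Sall4, Dppa5a and Utf1, and among them for Nanog, Dppa2 and Tdgf1. The log2 fold change was 0.20 for Pou5f1 (SE of 0.10, edgeR adjusted p = 0.271), −0.28 for Dppa5a (SE of 0.14, edgeR adjusted p = 0.271) and −0.20 for Utf1 (SE of 0.09, edgeR adjusted p = 0.221). Without WT ESC replicate 2 these were 0.10, −0.10 and −0.11, and again not called. Dppa2, at 0.07 (SE 0.10), Nanog, at −0.05 (SE 0.07), and Tdgf1, at −0.03 (SE 0.07), were closest to no difference, with edgeR adjusted p of 0.716, 0.732 and 0.874. The signs of Nanog and Tdgf1 turned when libraries were scaled by total count alone.

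**Figure D3:**
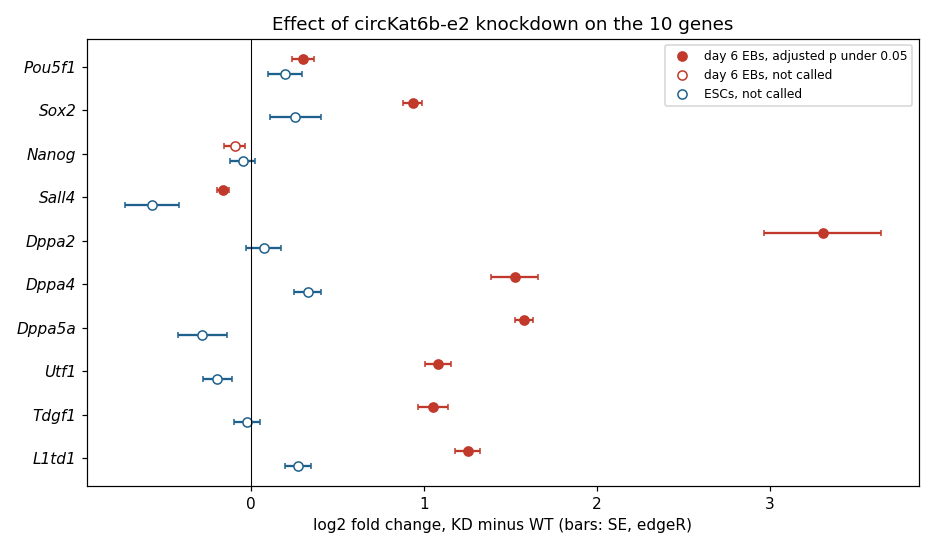
Log2 fold change of KD over WT for each of the 10 genes, in day 6 EBs (red) and in ESCs (blue), with bars of 1 SE from edgeR; filled points have an adjusted p under 0.05. The EB points of 7 genes (0.93 to 3.30) lie far right of their ESC points (−0.28 to 0.33), and Nanog has both points close to 0.

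Whether the knockdown effect differed between the stages was tested as the interaction in the fit of all 12 libraries, which uses the same libraries as the comparisons above. The effect was higher in EBs than in ESCs for 7 of the 10 genes and lower for 0 (1 more gene, Sall4, had an unadjusted p under 0.05, and DESeq2 called 8 higher and 0 lower, and 28.2% of all genes), where 23% of 18975 genes were called, 12.8% higher and 10.2% lower. The median difference was 1.10 on the log2 scale, against 0.03 over all genes. Dppa2 had the largest, 3.30 (SE of 0.34, edgeR adjusted p = 1.51e-05; 3.999 without WT EB replicate 1), and Dppa5a followed at 1.93 (SE of 0.17, edgeR adjusted p = 3.14e-06). Utf1, Dppa4, Tdgf1 and L1td1 lay between 1.05 and 1.34, with edgeR adjusted p from 1.35e-07 to 7.55e-06. For Sox2 the difference was 0.75 (SE of 0.18, edgeR adjusted p = 0.00917). That call was lost with scaling by total count alone (0.60, edgeR adjusted p = 0.0738) and with no filter on low counts (0.74, edgeR adjusted p = 0.0570). The 3 genes that did not pass were Sall4 (0.48 with SE 0.18, edgeR adjusted p = 0.0799), Pou5f1 (0.17 with SE 0.12, edgeR adjusted p = 0.336) and Nanog (0.02 with SE 0.08, edgeR adjusted p = 0.901). Without WT ESC replicate 2, Sall4 (0.21, edgeR adjusted p = 0.0108) and Pou5f1 (0.23, edgeR adjusted p = 0.0482) passed as well, where 27.9% of all genes did.

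Ratios within a library do not depend on how libraries are scaled, and they show how the balance of the network differed. Sox2 stood at 1.53, 1.63 and 1.48 times the RPKM of Pou5f1 in KD EBs and at 1.01, 1.08 and 0.929 times in WT EBs. The ranges did not overlap, and this shift between KD and WT does not depend on the exon lengths used. In RPKM, Sox2 exceeded Pou5f1 in every KD EB library while they were about level in WT EBs. That order of the genes does depend on those lengths. In ESCs the ratio was 0.263 ± 0.0183 in KD cells and 0.249 ± 0.0340 in WT cells (SD, n = 3 each), with Pou5f1 well above Sox2 in every library. Nanog over Pou5f1 ran the other way in EBs, at 0.839 ± 0.0540 in KD EBs and 1.11 ± 0.170 in WT EBs (SD, n = 3 each), with no overlap of the libraries. Sall4 over Pou5f1 was 1.45 ± 0.126 in KD EBs and 2.01 ± 0.198 in WT EBs (SD, n = 3 each), also without overlap. Utf1 over Pou5f1 was 1.43 ± 0.134 in KD EBs and 0.840 ± 0.131 in WT EBs (SD, n = 3 each). No p is given for these ratios, since 3 libraries against 3 cannot go below a two-sided p of 0.1 in an exact permutation test.

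**Figure D4:**
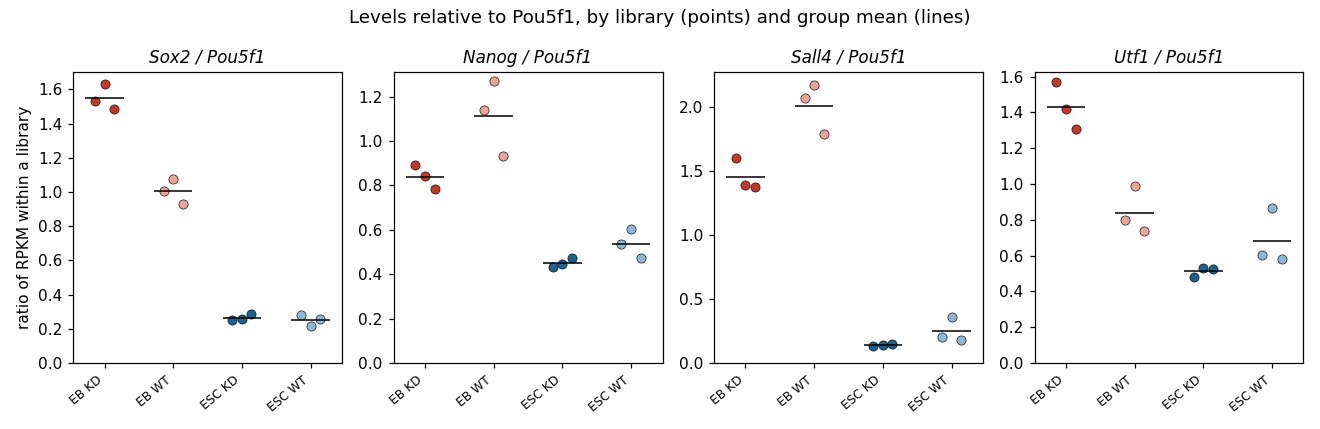
Ratio of the RPKM of Sox2, Nanog, Sall4 and Utf1 to that of Pou5f1 within each library (linear axes from 0); points are libraries and lines are means of 3. In EBs the KD points lie above the WT points for Sox2 and Utf1 and below them for Nanog and Sall4, and the ESC ratios are below the EB ratios of the same background in each panel except for 1 WT ESC library in Utf1.

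Genes of neighbouring states were counted in the same EB comparison. Of 14 naive pluripotency genes, which mark the ground state of ESCs, 14 were higher in KD EBs, with a median of 2.43 and a range of 0.36 to 5.75. Tdh, a threonine catabolic enzyme of ESCs, had the smallest p among them: 40.7, 39.7 and 37.4 CPM in KD EBs and 2.92, 3.10 and 2.17 CPM in WT EBs (log2 fold change 3.79 with SE 0.11, edgeR adjusted p = 5.45e-23). KD EB libraries exceeded WT EB libraries many times over for Tdh, although both were far below the 637 ± 11.02 CPM of KD ESCs and 724 ± 67.2 CPM of WT ESCs (SD, n = 3 each). Formative and primed genes, which mark the epiblast after the ground state, split evenly: of 12, 5 were higher and 5 lower, with a median of 0.07. Pou3f1, which encodes the POU factor OCT6, was the lower gene of smallest p (6.64 ± 0.460 CPM in KD EBs and 24.2 ± 0.697 CPM in WT EBs; log2 fold change −1.93 with SE 0.10, edgeR adjusted p = 5.22e-17; SD, n = 3 each).

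Several of the 10 genes are also active outside pluripotent cells, so markers of such cells were counted beside them. Neural progenitors use Sox2: of 5 tested markers (10 listed), 1 was higher (Nes, log2 fold change 0.24 with SE 0.05, edgeR adjusted p = 1.01e-04) and 1 lower (Sox1, −2.38 with SE 0.43, edgeR adjusted p = 1.90e-05), with a median of −0.02. Their summed level was 69.3 to 71.4 CPM in KD EBs and 59.1 to 61.5 CPM in WT EBs, most of it from Nes, with Hes5 at 0 in all KD EB libraries and Olig2 at 0 in all WT EB libraries. Germ cells use Pou5f1 among others: of 9 tested markers (10 listed), 3 were higher and 2 lower, with a median of 0.26. Nanos3 led the higher ones at 0.960 ± 0.460 CPM in KD EBs and 0.0743 ± 0.0864 CPM in WT EBs (SD, n = 3 each; log2 fold change 3.54 with SE 0.69, edgeR adjusted p = 6.98e-05), and Tfap2c the lower ones (−0.45 with SE 0.07, edgeR adjusted p = 3.21e-06). The germ cell markers summed to 142 to 148 CPM in KD EBs and 154 to 160 CPM in WT EBs. Most of this sum came from Kit (means of 92.7 CPM in KD EBs and 98.98 CPM in WT EBs) and Tfap2c (28.8 and 37.7 CPM). These were the 2 lower markers, so the lower sum in KD EBs is mainly theirs. The 3 higher markers, Prdm1, Nanos3 and Dazl, added less to it. No marker was at 0 in all libraries of a group, although Nanos3 and Stra8 were at 0 in WT EB replicate 1. For the 2-cell-like state 4 of 10 genes could be tested and 2 were higher (median 1.09), led by Zscan4a at 0.556 ± 0.102 CPM in KD EBs and 0.116 ± 0.121 CPM in WT EBs (SD, n = 3 each; edgeR adjusted p = 0.00995).

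Markers of the differentiated lineages also differed between the same EB libraries. Mesoderm had 7 of 10 markers higher and 2 lower, with a median of 0.68. Hand2 was higher (111 ± 3.33 CPM in KD EBs and 23.3 ± 0.417 CPM in WT EBs) and Hand1 lower (509 ± 11.02 CPM in KD EBs and 770.1 ± 5.62 CPM in WT EBs; SD, n = 3 each), with edgeR adjusted p of 1.36e-25 and 9.28e-19, and the summed level was 1076 to 1111 CPM in KD EBs and 1023 to 1040.2 CPM in WT EBs. Extraembryonic endoderm had 5 of 11 higher and 4 lower, with a median of 0.01. It was led by Ttr (log2 fold change 1.86 with SE 0.04, edgeR adjusted p = 3.16e-25) and Apoa1 (−1.42 with SE 0.23, edgeR adjusted p = 4.09e-06), and it summed to 833 to 861 CPM in KD EBs and 538 to 555 CPM in WT EBs. The higher sum came mainly from Dab2 (means of 220 CPM in KD EBs and 73.8 CPM in WT EBs) and Ttr (157 and 41.6 CPM), while Gata4 was slightly lower (181 and 187 CPM). Of 7 tested trophoblast markers (8 listed) 6 were lower, led by Krt18 (−0.77 with SE 0.03, edgeR adjusted p = 3.76e-20). The list summed to 1695 to 1799 CPM over the KD EB libraries, against 2436 to 2535 CPM over the WT EB libraries. Most of this came from the keratin genes Krt8 and Krt18. Krt8 averaged 1104 CPM and Krt18 615 CPM across KD EB libraries, against 1421 and 1007 CPM across WT EB libraries. Cdx2 and Eomes were placed instead in the list of partners and repressors of the OCT4 network. Both were higher in KD EBs (log2 fold change 1.01 with SE 0.06 and 0.92 with SE 0.08), so the lower direction is that of the markers listed here. In ESCs, mesoderm markers summed to 5.49 to 7.82 CPM in KD cells and 5.98 to 8.77 CPM in WT cells. The part of cell composition in the differences of the 10 genes was not tested.

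**Figure D5:**
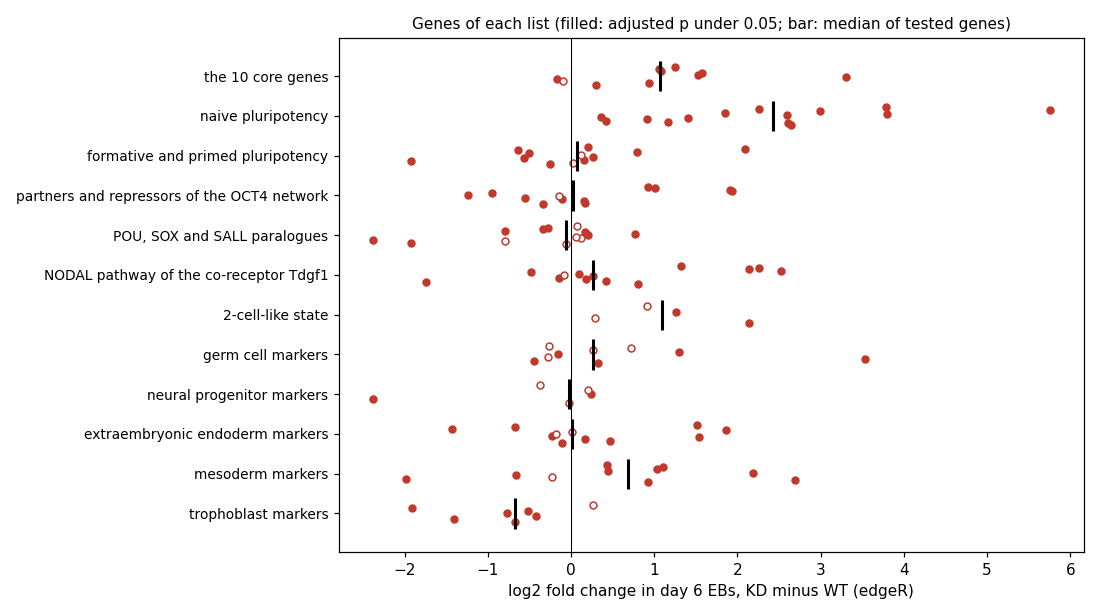
Log2 fold change of KD EBs over WT EBs for each tested gene of the 10 core genes and of 11 other lists; filled points have an adjusted p under 0.05 and bars are medians. The 10 core genes (median 1.07) lie mostly to the right of 0, all 14 naive genes do (median 2.43), and 6 of the 7 trophoblast genes lie to the left (median −0.67).

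Over the 12 libraries the 10 genes shared their direction, high in ESCs and low in EBs, but their profiles differed in size. Likeness was measured as the root mean square difference of log2 CPM after each gene was centred on its own mean, so it is a description over libraries that share their stage and knockdown. Profiles were not scaled, so genes that fell to different depths in EBs count as far apart. The closest pair was Dppa4 and L1td1 (0.189), followed by Utf1 and L1td1 (0.215), and the farthest was Sall4 and Dppa5a (2.48). Pou5f1 and Sox2, partners on DNA, were 1.17 apart, against 0.513 for Pou5f1 and Tdgf1 and 0.530 for Pou5f1 and Nanog. Dppa2 and Dppa4 were 0.804 apart.

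Of 10388 genes compared in this way, the nearest to Pou5f1 were Hspb1 (0.188), Fam81a (0.212) and Cyp2b23 (0.219). Hspb1, a small heat shock protein gene, had 79.2 ± 3.99 CPM in KD EBs and 74.6 ± 7.15 CPM in WT EBs, and 1659.5 ± 85.7 CPM in KD ESCs and 1769 ± 102 CPM in WT ESCs (SD, n = 3 each). Sox2 had a closer neighbour than either other factor: Sgk1, a serum-induced kinase gene, at 0.0926, ahead of Zfp979 (0.160) and Pcyt1b (0.166). Sgk1 had 70.4, 65.2 and 68.1 CPM in KD EBs and 35.5, 35.2 and 32.8 CPM in WT EBs. In ESCs it had 254, 255 and 269 CPM in KD cells and 229, 162 and 233 CPM in WT cells, and so was also low in WT ESC replicate 2. The nearest to Nanog were Asns (0.109), Dnmt3l (0.119) and Ifitm3 (0.123). Dnmt3l, a cofactor of DNA methyltransferases in germ cells and ESCs, had 22.7 ± 1.19 CPM in KD EBs and 21.8 ± 1.05 CPM in WT EBs, and 290.4 ± 2.94 CPM in KD ESCs and 282 ± 16.1 CPM in WT ESCs (SD, n = 3 each).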

How the data were processed

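RNA sequencing of 12 libraries was analysed. Each stage had 1 deposited table of raw counts. The submitters' processing notes name HISAT2 2.1.0, the build mm10, featureCounts 2.0.3 and DESeq2 1.18.1. The authors counted, per the file headers, with the Ensembl release 90 annotation, both ends mapped and chimeric pairs left out. Low counts were mostly even (61.7% to 68.7% of those from 1 to 10), and 48.0% to 51.6% of those from 101 to 1000 were even. Whether mates or fragments were counted is not stated, so halved counts were an alternative. How reads with several alignments were counted is not stated.

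KD and WT were compared within each stage, and stages and the interaction over all 12 libraries, by edgeR 4.0.16 (R 4.3.3): quasi-likelihood F-test, TMM, filterByExpr (minimum count 10, total 15), robust dispersion, Benjamini-Hochberg adjustment over all tested genes, called under 0.05. The SE follows from the fold change and F, as its size over the root of F. RPKM and CPM were computed with the TMM scaling of all 12 libraries and, for RPKM, the deposited exon lengths. The fits were also run on simulated data with few changed genes, a fixed spread and no outlying library. That setting is simpler than these data, so the run does not vouch for the fits here. DESeq2 1.42.0 and other settings were alternatives. SD and p measure the spread between libraries, whose separate origin is stated only as biological replicates. Replicate numbers did not pair libraries across groups (correlations of deviations between −0.026 and 0.037). Named were all 10 genes, per list the called gene of smallest adjusted p in each direction, and the 3 genes of most similar profile (mean log2 CPM at least 2, no Gm or Rik models) for Pou5f1, Sox2 and Nanog; some genes this rule names are not reported here. Some further list genes are named for their weight in a summed level or as context. The members and lists were chosen with earlier results of these data known.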

Additional observations from a re-analysis of the deposited data

Results flagged for a closer look

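The effect of the knockdown differed between day 6 EBs and ESCs for 7 of the 10 genes by the interaction test of edgeR. Of all 18975 genes tested, 23% were called, 12.8% higher and 10.2% lower. The KD minus WT difference in EBs minus that in ESCs was 3.30 for Dppa2, 1.93 for Dppa5a, 1.34 for Utf1, 1.26 for Dppa4, 1.15 for Tdgf1, 1.05 for L1td1 and 0.75 for Sox2 on the log2 scale. In each case the EB effect was the higher. Dppa5a, Utf1 and Tdgf1 had ESC effects below 0 that were not called (−0.28, −0.20 and −0.03). WT ESC replicate 2 was above the other 5 ESC libraries for Dppa5a and Utf1 and among them for Tdgf1. Without that library all 7 were still called, where 27.9% of all genes were.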

How the results depend on the processing

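The 8 genes higher in KD EBs and the 10 lower in EBs than in ESCs kept these calls in every setting run: DESeq2, other normalizations, no filter, halved counts, the replicate block, the fit of all 12 libraries and each library left out. Of the 10 genes, 0 were lower in KD EBs in the fit of all 12 libraries. ESC results were less stable: the count of all genes called was 97 (0.603% of those tested). That count was 1999 with all 12 libraries in the fit (18975 genes tested), 1030 with DESeq2 (8.79% of 11714) and 36 with library size only. It was 1769 with no filter, where every gene with a count was tested, and 8 to 1557 with a library left out. The highest was without WT ESC replicate 2 (9.35% of those tested). Of the 10 genes in ESCs, 2 were higher and 1 lower with all 12 libraries or DESeq2, 3 and 2 with no filter, and 0 to 2 higher and 0 to 1 lower with a library left out; the cause was not tested. With no filter these were Sox2, Dppa4 and L1td1 higher and Sall4 and Dppa5a lower. Genes with a higher effect in EBs than in ESCs numbered 7 to 9 with a library left out, and Sall4 was also called there with DESeq2 (0.52) and without WT ESC replicate 3 (0.58).

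With library size only, the sign turned for Nanog (0.0607) and Tdgf1 (0.0872) in ESCs and for the stage difference of Nanog (−0.14), which ran from −0.0636 to 0.0637 with a library left out. That scaling put the median of all genes for EBs against ESCs at 0.52 in KD and 0.70 in WT cells, against 0.15 and 0.17, at 0.12 for KD against WT ESCs, against 0.01, and at −0.13 for the stage difference, against 0.03. It also put the share of higher calls at 65.2% (53.3% in the main result) for EBs against ESCs in WT cells and at 35.3% (55.6%) for the stage difference. In ESCs that share was 27.8%, and 48.5% with all 12 libraries, 39.0% with no filter and 40.1% without WT ESC replicate 2.

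The replicate numbers did not pair the libraries, and not every library was closest to its own number. Under the replicate block 266 genes were called in ESCs, 9655 in EBs and 4023 for the stage difference, and no call of the 10 genes changed. For the other lists 1604 of 1760 counts stayed within 1.5 times, and of 1295 values of named genes 1236 kept their call, 59 lost it and 0 turned. Depth limits Dppa2 in WT EBs, with 20 to 57 counts.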

Other observations

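Relatives of the leading factors were counted too. Of 13 tested POU, SOX and SALL paralogues (14 listed), 3 were higher and 5 lower in KD EBs, with a median of −0.06. Sox11 was higher, at 187, 185 and 183 CPM in KD EBs and 156, 153 and 153 CPM in WT EBs (log2 fold change 0.20 with SE 0.03, edgeR adjusted p = 8.05e-06). In ESCs 2 of 12 tested paralogues were higher, where 0.168% of all 16081 genes were called higher, a count that changed widely between settings. They were led by Pou2f3, at 37.2, 31.5 and 34.3 CPM in KD ESCs and 16.5, 13.7 and 21.5 CPM in WT ESCs (log2 fold change 1.00 with SE 0.16, edgeR adjusted p = 0.0243). Pou2f3 averaged 0.426 ± 0.142 CPM in KD EBs and 0.712 ± 0.379 CPM in WT EBs (SD, n = 3 each).

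Of 12 partners and repressors of the OCT4 network, 6 were higher and 5 lower in KD EBs, with a median of 0.03. Cdx2, which represses Pou5f1 in trophectoderm, had 56.4, 57.7 and 57.2 CPM in KD EBs and 27.7, 25.9 and 27.8 CPM in WT EBs (log2 fold change 1.01 with SE 0.06, edgeR adjusted p = 3.21e-15), and so was higher in the same libraries as Pou5f1. Trim71, an RNA-binding ubiquitin ligase gene, had 155, 153 and 156 CPM in KD EBs and 356, 351 and 341 CPM in WT EBs (log2 fold change −1.23 with SE 0.03, edgeR adjusted p = 7.60e-24). The pseudogene Tdgf1-ps1 had 77 counts in WT ESC replicate 2 and 500 to 664 in the other ESC libraries, or 0.433% against 2.03% to 3.31% of the Tdgf1 counts, while Tdgf1 itself was not out of range there. Of the naive genes, Dppa3 was higher in KD EBs than in KD ESCs (log2 fold change 0.74 with SE 0.27, edgeR adjusted p = 0.0221) and lower in WT EBs than in WT ESCs (−2.89 with SE 0.31, edgeR adjusted p = 2.95e-07).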
